A study of Rattus norvegicus with 54 samples.

Results

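The data described here are 12 RNA sequencing libraries from cortical neuron cultures made to carry extra MBD3, of 54 libraries in the series, compared between 24 h and 2 h. They were chosen by their labels alone. All came from rat cortex at embryonic day 18 (E18), grown as neuronal cultures and infected with AAV_SYN_rMBD3_GFP, an adeno-associated virus that carries rMBD3 and GFP behind the SYN promoter. At each time 3 libraries came from standard medium with magnesium and 3 from magnesium-free medium, which the labels call epileptic. Each set of 3 was numbered by cell culture, so that a culture number gave 4 of the 12 libraries. The reference groups were 12 libraries at the same times and in the same media from cultures given AAV_SYN_GFP, which carries GFP without rMBD3, and 12 from cultures given no virus. Libraries at 6 h, 6 for each construct, were used only to show levels between the 2 times. The design counts hours from the induction of epileptiform activity, and cultures kept with magnesium carry the same hours. How long the virus had been present is not given in the sources used here, and all 6 libraries of a time share 3 cultures.

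MBD3 is a subunit of the NuRD complex, which joins histone deacetylase and nucleosome remodelling activities and acts mainly on promoters and enhancers. It belongs to the methyl-CpG-binding domain family, although its own domain binds methylated DNA poorly. Magnesium ions block the pore of the NMDA receptor at rest, and neurons left without magnesium fire in synchronous bursts, a common culture model of epileptiform activity. The comparison asks how far the transcript pool of cultures with added rMBD3 moved over the first day of that design.

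Genes are given by Ensembl identifier. The count table held 30560 identifiers and no symbols, and 0 of them matched the 47357 genes of the RefSeq table at hand. The Mbd3 gene, the neuron and glia markers and the 31 gene lists drawn up for this comparison could therefore not be picked out by name. They were not analysed as such, and the labelled cell type was not checked against its markers. The groups of genes below come from the annotation in the count table: span, exons, chromosome and neighbours.

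Total counts ran from 23712721 to 32596463 over the 12 libraries, and 3 counts, taken as the floor of detection, equalled 0.0920 to 0.127 CPM, the count scaled to library size in the usual unit. Between 16265 and 18470 genes had counts. Pairs of libraries from 1 group differed far beyond counting noise, with a chi-square per gene of 25.8 to 297, so none looked like a copy of another. Time took the first principal component of the 12 libraries, with 63.5% of the variance. The 6 libraries at 2 h scored -98.5 to -78.7 on it. At 24 h the 4 libraries of cultures 2 and 3 scored 108 to 118, whereas culture 1 scored 50.5 without magnesium and 15.4 with magnesium. The latter library also held the second component (12.6% of the variance) at -123 and had the highest mitochondrial share of the 12, 3.56%, against 1.41% to 2.65% at 2 h and 1.85% to 2.31% in the other libraries at 24 h. Values without culture 1 are given below for the counts of changed genes, the long genes, the mitochondrial genes and the single genes with the largest changes.

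**Figure D1:**
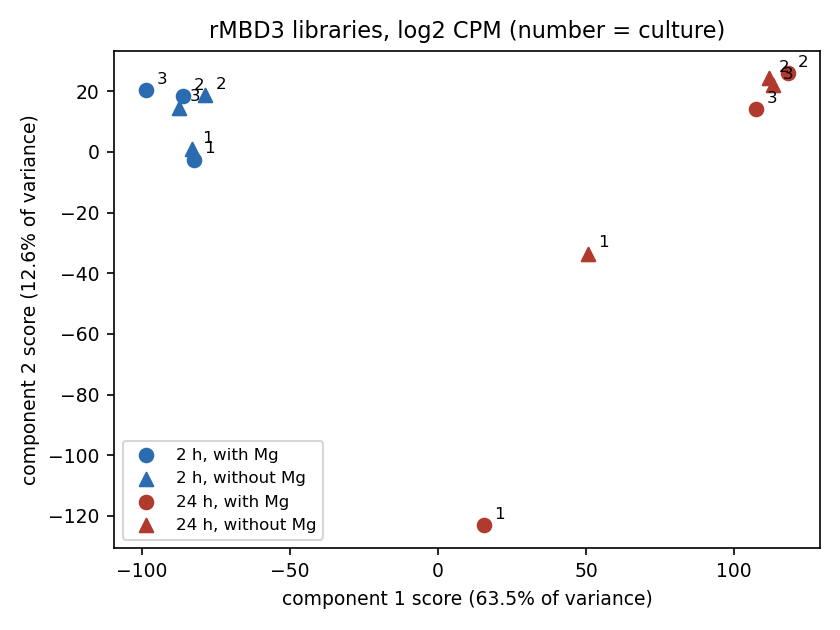
Scores of the 12 rMBD3 libraries on the first (x) and second (y) principal component of log2 CPM, coloured by time and shaped by medium, with the culture number beside each point. The 2 h libraries lie together on the left, and culture 1 at 24 h lies apart from cultures 2 and 3 at 24 h.

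A search of the 54 libraries found 1 gene that set the rMBD3 libraries apart. It was chosen by the labels, so that its separation is a description and no check of them. ENSRNOG00000028956 (chromosome 7, 9313098 to 9320165, plus strand, mRatBN7.2; 7 exons, 1923 exonic bases) was the only gene whose lowest rMBD3 library lay above the highest other library, by 8.4-fold. The files do not name it, and gene totals do not separate a viral from a cellular copy. It was the most abundant gene of the rMBD3 libraries at 2 h and took 0.731% to 1.82% of their counts, and 0.230% to 0.814% at 24 h. In medium with magnesium, cultures 1, 2 and 3 had 13906, 13377 and 18263 CPM at 2 h and 7414, 2836 and 3176 CPM at 24 h. In magnesium-free medium they had 17897, 7328 and 16024 CPM at 2 h and 7988, 2664 and 2289 CPM at 24 h. The level at 24 h was lower in each culture and medium. Culture 1 kept 53.3% of its 2 h level with magnesium and 44.6% without, and cultures 2 and 3 kept 14.3% to 36.4%. The groups overlapped, since culture 2 without magnesium at 2 h lay below culture 1 at 24 h in both media.

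Over the 6 libraries of each time the mean of ENSRNOG00000028956 fell from 14466 ± 4027 CPM at 2 h to 4394 ± 2583 CPM at 24 h (SD, n = 6), with 9329 ± 1096 CPM at 6 h. On the log2 scale the change was -1.88 ± 0.26 (SE; edgeR, adjusted p = 0.000121), and -2.29 ± 0.19 without culture 1. In GFP cultures the same gene went from 143 ± 26.9 to 176 ± 13.7 CPM, a rise of 0.31 ± 0.10 on the log2 scale (adjusted p = 0.0195, edgeR). In untransfected cultures it went from 157 ± 31 to 209 ± 39.4 CPM, a rise of 0.51 ± 0.14 (adjusted p = 0.0124, edgeR). The gene thus fell in rMBD3 cultures while it rose slightly in both references, and the rMBD3 libraries stayed far above them at 24 h.

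**Figure D2:**
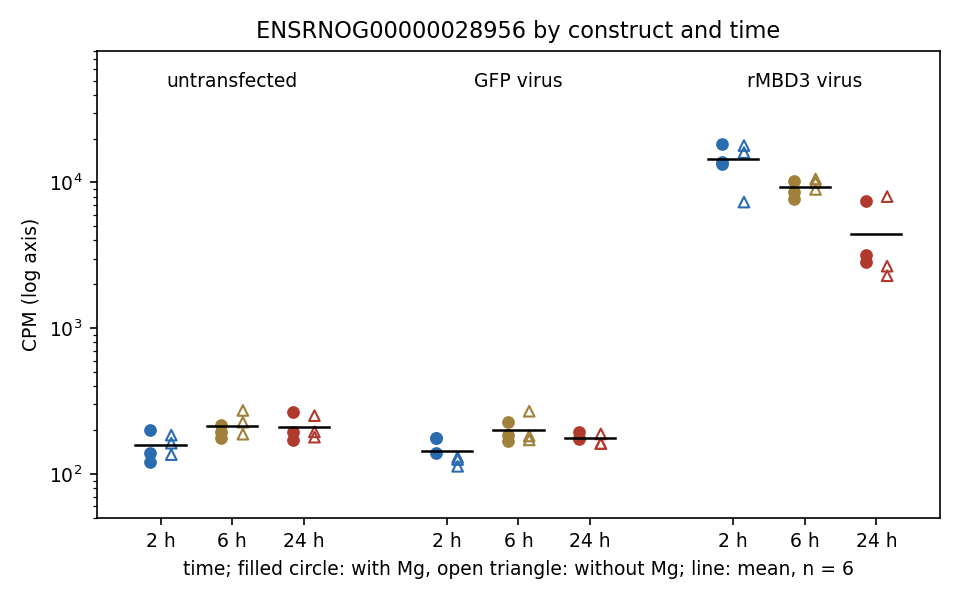
Level of ENSRNOG00000028956 in CPM on a log axis (y) in all 54 libraries by construct and time (x), with filled circles for medium with magnesium, open triangles for magnesium-free medium and a line at the mean of 6. The rMBD3 libraries lie above all others at each time, and their level falls from 2 h to 24 h.

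In the fit to the 12 libraries, most of the genes tested differed between 2 h and 24 h. Of 15545 genes tested, 8952 (57.6%) passed an adjusted p-value of 0.05 in the quasi-likelihood test of edgeR with medium and culture number as blocks; 4375 (28.1%) were higher at 24 h and 4577 (29.4%) were lower. Genes called higher made up 23.2% to 27.2% of a library's counts at 2 h, 32.3% to 36.3% at 6 h and 40.8% to 49% at 24 h. Genes called lower made up 40.5% to 45.5%, 28.3% to 30.8% and 16.4% to 23.9%. Since these genes were called from the 2 h and 24 h libraries, only the 6 h values are independent of the choice, and they lay between the others in every library. In bulk RNA, fewer cells of a type and less RNA per cell cannot be told apart, and every level here is a share of the library.

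The 2 media of 1 culture were not independent samples: their deviations at 1 time point correlated across genes. With the counts of both media summed, which leaves 3 cultures at each time, 4943 of 16440 genes tested passed (edgeR), no longer most of them. Of those tested, 1945 (11.8%) were higher and 2998 (18.2%) lower, so that falls made up the larger part. With magnesium alone 3252 genes passed, and without magnesium alone 4624. Of the 8952 genes, 4928 passed in the summed fit with the same sign, and none of the 8952 changed sign and passed. In 5345 genes (34.4% of those tested) the 2 h and 24 h libraries did not overlap, 2281 higher and 3064 lower at 24 h. As a description, 7334 of the 8952 genes had 1 sign in all 6 pairs of the same culture and medium.

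At 2 h, pairs of libraries of 1 group that included culture 1 already had a chi-square per gene of 102 to 147. Pairs of cultures 2 and 3 had 32.6 with magnesium and 40.6 without. Culture 1 also differed from cultures 2 and 3 in its change. Across genes, the log2 change from 2 h to 24 h had an SD of 1.36 and 1.43 in its pairs with and without magnesium, against 1.62 to 1.76 in the other 4 pairs. Over the called genes the median absolute change was 0.868 with magnesium and 1.12 without in culture 1, and 1.04 to 1.27 in the other pairs, so on that measure its pair without magnesium lay among them. Changes of pairs that did not involve culture 1 correlated across genes at 0.829 to 0.90, and those that did at 0.442 to 0.652; genes are not independent replicates. Without culture 1 the count rose to 10605 genes, and without culture 2 or 3 it was 6474 or 5899. Leaving out only the 24 h library of culture 1 with magnesium gave 9489.

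Large falls outnumbered large rises. Among called genes that changed by under 0.5 on the log2 scale, 681 were higher and 503 lower, and from 0.5 to 1 there were 1685 and 1061. In contrast, 1002 genes (6.45% of those tested) were at least 8-fold lower and 144 (0.926%) at least 8-fold higher. The median level of the 1002 genes was 11.6 to 16.4 CPM in the libraries at 2 h and 5.34 to 7.15 CPM at 6 h. At 24 h it was 0.429 to 0.613 CPM in cultures 2 and 3, but 2.27 CPM in culture 1 without magnesium and 3.56 CPM in culture 1 with magnesium. The 4 libraries of cultures 2 and 3 were thus the lowest at 24 h. Between 102 and 229 of them had no count in a 24 h library, against 2 to 11 at 2 h. The 144 genes that rose had a median of 0.0610 to 0.251 CPM at 2 h, 0.625 to 0.940 CPM at 6 h and 1.88 to 2.87 CPM at 24 h. Their 2 h medians lay near or under the floor of 0.0920 to 0.127 CPM, so the size of many of these rises is poorly determined. In 10 genes every 2 h library had at least 10 counts and every 24 h library at most 3, and 1 gene had the opposite pattern. Without culture 3 the count of genes at least 8-fold lower was 624, and without culture 1 the count at least 8-fold higher was 233.

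The same passage of time was measured in the reference cultures. In GFP cultures 9858 of 15628 genes passed (63.1%; 4800 or 30.7% higher, 5058 or 32.4% lower), and in untransfected cultures 6995 of 15759 (44.4%; 3701 or 23.5% higher, 3294 or 20.9% lower). In untransfected cultures the excess of rises held only in that fit: all 8 alternatives gave more falls, for example 3325 higher and 3515 lower with relative log expression factors and 1692 and 2109 with the media summed. The genes at least 8-fold lower numbered 543 (3.47%) in GFP and 254 (1.61%) in untransfected cultures, against 1002 in rMBD3 cultures, and those at least 8-fold higher 210 (1.34%) and 126 (0.8%), against 144. The biological coefficient of variation, the spread between libraries that each test allows for, was 33% in rMBD3, 27.2% in GFP and 38.1% in untransfected cultures, and the difference between these counts was not tested as such. For the 1002 genes the median level of a library at 24 h was 0.698 to 4.68 CPM in GFP and 1.13 to 5.80 CPM in untransfected cultures. Those ranges overlap that of the rMBD3 libraries, 0.429 to 3.56 CPM, which also chose the genes.

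**Figure D3:**
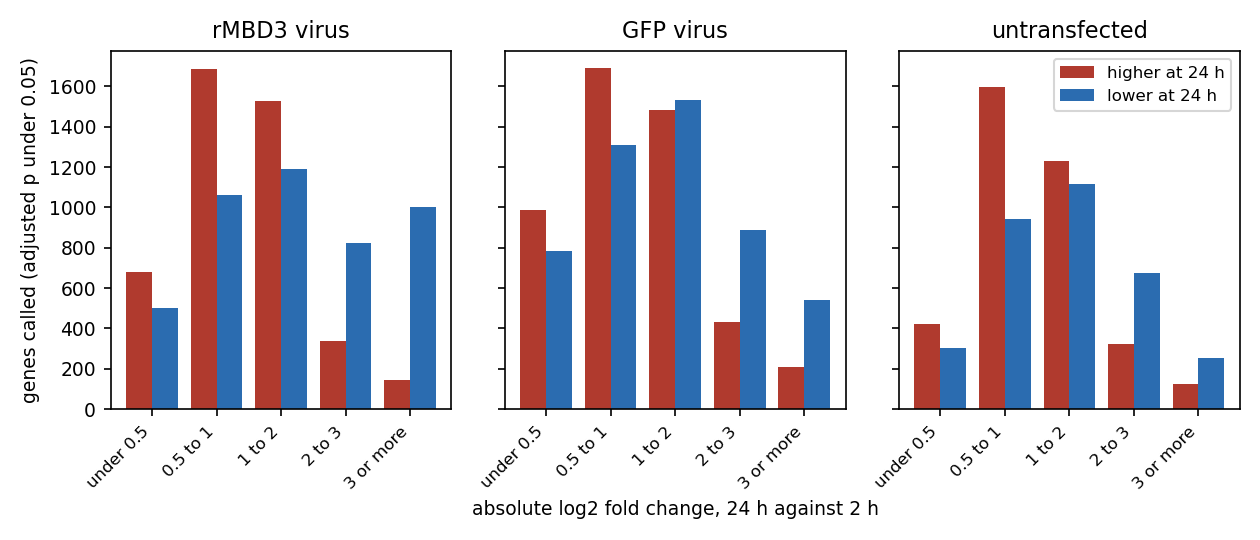
Number of genes called at an adjusted p-value under 0.05 (y) by the absolute log2 fold change between 24 h and 2 h (x), higher and lower at 24 h, in rMBD3, GFP and untransfected cultures. In the fits shown, rises outnumber falls below a change of 1 and falls outnumber rises above 2 in each construct.

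Single genes with the largest changes were taken by a rule that asked for a mean log2 CPM of at least 3 and 1 sign in all 6 pairs, which 2728 rising and 2948 falling genes met. ENSRNOG00000052795 (chromosome 20, 5136441 to 5202337, plus strand, 58 exons) was at 5.02, 2.10 and 1.85 CPM in cultures 1, 2 and 3 with magnesium at 2 h and at 1.54, 3.59 and 3.36 CPM without. At 24 h it was at 197, 35.3 and 75.7 CPM with magnesium and at 141, 46.9 and 86.6 CPM without. Its lowest 24 h library was above its highest 2 h library, and culture 1 had the highest levels at 24 h in both media. Its log2 change of 4.82 ± 0.40 (SE; edgeR, adjusted p = 4.17e-06) came with a mean of 10.4 ± 7.62 CPM at 6 h (SD, n = 6). The change was 4.10 ± 0.35 in GFP and 3.62 ± 0.51 in untransfected cultures, and the difference of rMBD3 from either did not pass (adjusted p = 0.501 and 0.545, edgeR).

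ENSRNOG00000028910 (chromosome 3, 105739174 to 105744697, minus strand, 11 exons) rose from 1.01 to 1.58 CPM at 2 h to 12.3, 35.5 and 42.9 CPM in cultures 1, 2 and 3 with magnesium at 24 h and to 26, 35.4 and 38.1 CPM without. Here culture 1 had the lowest levels at 24 h, and the 2 times did not overlap. By edgeR the log2 change was 4.54 ± 0.29 (SE; adjusted p = 9.58e-07), and the 6 h mean was 3.82 ± 1.78 CPM (SD, n = 6). It was 4.62 ± 0.39 in GFP and 3.92 ± 0.51 in untransfected cultures (difference tests: adjusted p = 0.923 and 0.668, edgeR).

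Among falling genes, ENSRNOG00000027233 (chromosome X, 107939131 to 108230991, minus strand, 13 exons, a span of 291861 bases) had 15.1, 27.4 and 37.3 CPM in cultures 1, 2 and 3 with magnesium at 2 h and 16.9, 29.7 and 31.5 CPM without. At 24 h it had 0.534, 0.393 and 0.478 CPM with magnesium and 0.708, 0.191 and 0.273 CPM without, from 5 to 21 counts. All 6 libraries at 24 h lay far below those at 2 h, and the 6 h mean of 5.92 ± 2.15 CPM (SD, n = 6) lay between. This was a log2 change of -5.88 ± 0.37 (SE; edgeR, adjusted p = 9.32e-07). It was -4.39 ± 0.26 in GFP and -3.68 ± 0.24 in untransfected cultures, and the difference of rMBD3 from GFP was -1.40 ± 0.39 (adjusted p = 0.146, edgeR).

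ENSRNOG00000018141 (chromosome 17, 40165084 to 40225653, minus strand, 22 exons) went from 31.2 to 64.5 CPM at 2 h to 2.89, 0.286 and 0.515 CPM in cultures 1, 2 and 3 with magnesium at 24 h and 4.28, 0.728 and 0.352 CPM without. Culture 1 again kept the highest levels at 24 h, but the times did not overlap. Its log2 change was -5.43 ± 0.57 (SE; edgeR, adjusted p = 1.84e-05), with 14.1 ± 2.25 CPM at 6 h (SD, n = 6). It was -4.96 ± 0.39 in GFP and -4.32 ± 0.45 in untransfected cultures (difference tests: adjusted p = 0.964 and 0.724, edgeR). Without culture 1 the log2 changes of these 4 genes, in the order given, were 4.41, 4.93, -6.56 and -6.60. Their roles are not given, because the files do not pair their identifiers with names.

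**Figure D4:**
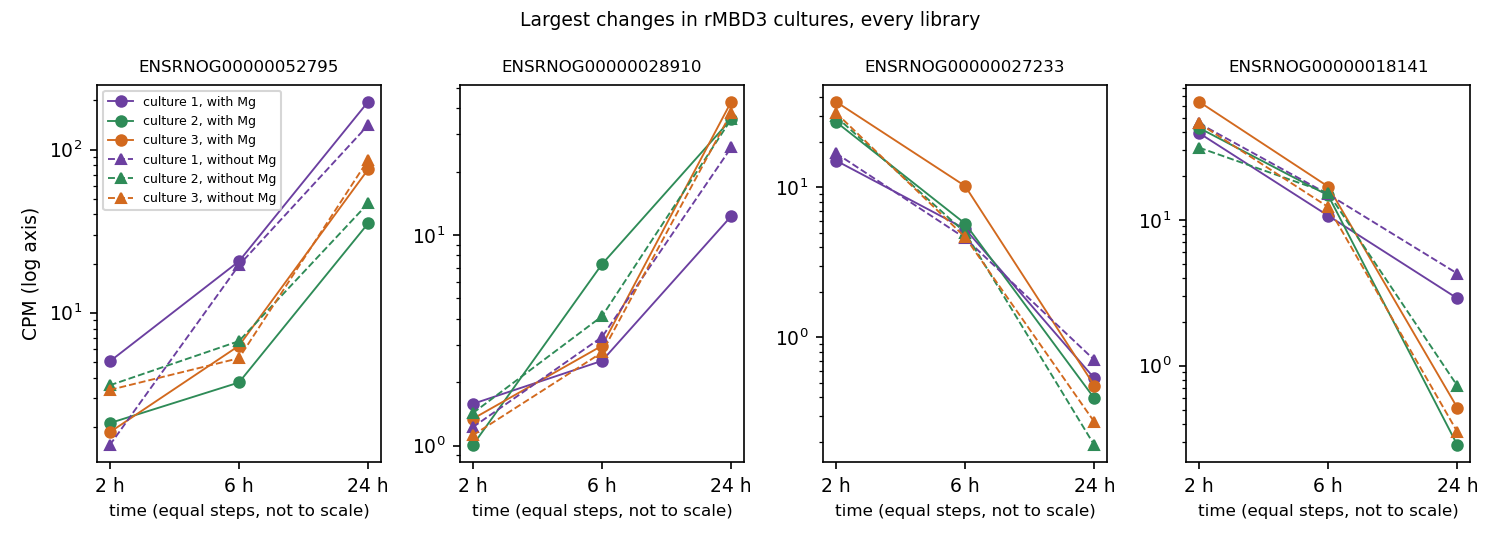
Level in CPM on a log axis (y) at 2, 6 and 24 h (x) of the 4 named genes with the largest rises (left pair) and falls (right pair), 1 line for each culture and medium of the rMBD3 libraries. Every line rises in the left pair and falls in the right pair between 2 h and 24 h, which the rule that chose the genes required.

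Genes also differed by span, the distance from the first to the last annotated base, introns included, and the longest mostly fell. In neurons, genes with very long introns include many that encode cell adhesion, ion channel and synaptic proteins. Of 200 tested genes over 500 kb, 143 (71.5%) fell and 23 (11.5%) rose, with a median log2 fold change of -2.23, against 29.4% and 28.1% and a median of 0.03 over all genes tested. Genes of 200 to 500 kb had 48.4% lower and 20.5% higher among 709, with a median of -0.59. In the classes from 5 to 200 kb the share that fell was 26.5% to 34.4% and the share that rose 27.8% to 36.3%. Genes of up to 5 kb rose least often after the longest class, in 16% of 2550, and 26.7% of them fell. At least 8-fold lower were 68 of the 200 longest genes, 34% against 6.45% of all. Without culture 1 the median over 500 kb was -2.80, and 77.5% of these genes were lower, against 34.3% of all genes tested in that fit. With magnesium alone the median was -2.29, but only 75 of 200 passed as lower (37.5%) and 12 as higher. In that fit 172 instead of 343 genes of 200 to 500 kb were lower. Of all genes tested in it, 12.5% were lower and 8.39% higher.

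The median level of the 200 genes in cultures 1, 2 and 3 was 19.8, 24.3 and 30.7 CPM with magnesium at 2 h and 19.2, 22.5 and 26.7 CPM without. At 24 h it was 12.1, 3.80 and 3.92 CPM with magnesium and 8.44, 4.0 and 3.52 CPM without. The times did not overlap, and culture 1 again stood above cultures 2 and 3 at 24 h. At 6 h the libraries had 10.5 to 15.4 CPM. Together the 200 genes took 0.770% to 1.15% of the counts at 2 h, 0.620% to 0.680% at 6 h and 0.385% to 0.549% at 24 h.

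Level and exonic length did not remove the difference between span classes. Within 5 classes of mean log2 CPM, 31.8% to 58.9% of genes over 200 kb were lower, and 18.2% to 32.8% of genes up to 200 kb. Within 4 classes of exonic length the shares were 49% to 61.3% and 25.3% to 29.2%. Exonic length and exon number by themselves moved the share of lower genes less, from 19.1% to 31.7% and from 24.4% to 30.7% across their classes. The share of higher genes rose with the number of exons, from 11.9% of 865 genes with 1 exon to 34.7% of 2378 with over 20. The median log2 change ran only from -0.06 to 0.10 across these classes, and level was not held fixed for them. Among genes up to 200 kb, 12.1% were higher at a mean log2 CPM under 1, against 33.5% to 34.8% over 3. These are descriptions of genes, which are not replicates, and carry no test.

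The long genes moved in the reference cultures too. By culture and medium, the median log2 change of genes over 500 kb from 2 h to 24 h, on the scale of log2 of CPM plus 0.5, was -2.51 to -0.80 in rMBD3 cultures, with a mean of -1.82 ± 0.69 (SD, n = 6 pairs). It was -1.76 ± 0.58 in GFP and -1.42 ± 0.77 in untransfected cultures. From 2 h to 6 h it was -0.72 ± 0.29, -0.90 ± 0.33 and -0.98 ± 0.29 in the same order. Matched by culture and medium, the median at 6 h fell less in rMBD3 than in untransfected cultures in 6 of 6 pairs, by 0.26 ± 0.26 on average (SD) and by 0.0032 in the closest pair, and less than in GFP cultures in 4 of 6. At 24 h it fell less in 3 of 6 pairs and more in 3 against either reference. These differences were not tested. In the fits across all genes, 75.6% of 201 such genes were lower in GFP cultures, against 32.4% of all genes tested. In untransfected cultures 60.7% of 201 were lower, against 20.9%.

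**Figure D5:**
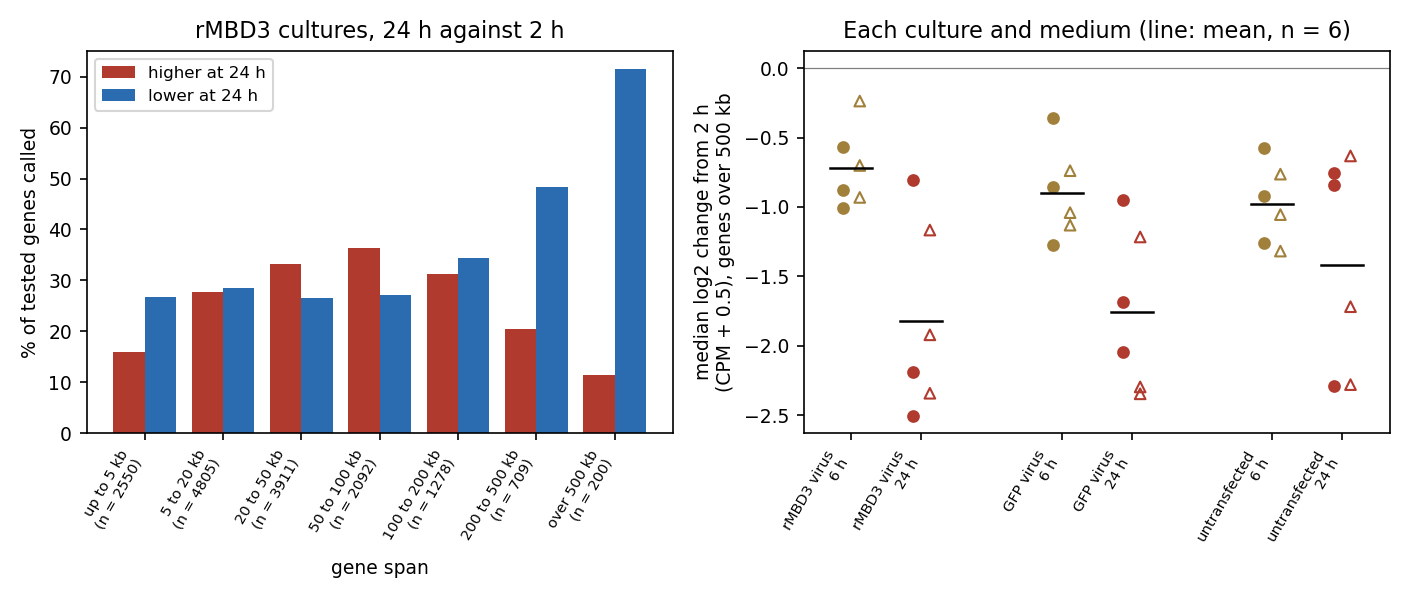
Left, percent of tested genes called higher or lower at 24 h in rMBD3 cultures (y) by gene span (x, with the number of genes). Right, median log2 change from 2 h of genes over 500 kb (y) in each culture and medium at 6 h and 24 h by construct (x; filled circles with magnesium, open triangles without, line at the mean of 6 pairs); in rMBD3 cultures the 24 h values run from -2.51 to -0.80.

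By chromosome the shares varied less than by span. Among autosomes the share of lower genes ran from 23.2% on chromosome 18 to 34.2% on chromosome 7, and the share of higher genes from 22.9% on chromosome 12 to 31.6% on chromosome 5. On the X chromosome 35.8% of 531 genes were lower and 24.7% higher. The mitochondrial genome, which encodes subunits of the respiratory chain and the RNAs needed to translate them, had 37 annotated genes, of which 21 passed the filter on low counts. Of these, 5 (23.8%) were higher and 1 (4.76%) was lower at 24 h, against 28.1% and 29.4% of all genes tested. The lower one, of 67 exonic bases, went from a mean of 1.03 to 0.224 CPM. At similarly low levels, 1 of the higher ones, of 75 bases, went from 0.191 to 1.16 CPM. Of the 12 with at least 100 CPM at 2 h, 3 were higher and 0 lower (edgeR), and their median log2 fold change was 0.37. These counts moved with the libraries used, as did those over all genes. Without culture 1, 5 were higher and 5 lower, against 33.8% and 34.3% of all genes tested in that fit. Without its 24 h library with magnesium 4 and 3 were, against 28.3% and 31.4%. Without culture 2, 1 was higher and 0 lower, against 18.3% and 22.9%. With the media summed 1 and 1 were, against 11.8% and 18.2%. With magnesium alone 0 were higher and 0 lower, against 8.39% and 12.5%. Without magnesium alone 0 were higher and 2 lower, against 11.3% and 19.2% (edgeR). The mitochondrial share of counts was 1.41% to 2.65% at 2 h, 2.30% to 4.08% at 6 h and 1.85% to 3.56% at 24 h. The times thus overlapped, and 6 h was not between them. In GFP cultures 13 of 21 mitochondrial genes (61.9%) were higher at 24 h and 0 lower, against 30.7% and 32.4% of all genes tested. In untransfected cultures 10 of 22 (45.5%) were higher and 0 lower, against 23.5% and 20.9% (edgeR). The difference between constructs in these counts was not tested.

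Whether the change with time depended on the medium was tested as an interaction within the 12 libraries. No gene passed (0 of 16085, 0%; edgeR), 127 had an unadjusted p-value under 0.05, and DESeq2 also called 0. For ENSRNOG00000028956 the log2 change without magnesium minus that with magnesium was 0.17 ± 0.52 (SE), a smaller fall without magnesium, and for the 4 genes with the largest changes the difference was -0.26 to 0.90, with standard errors of 0.55 to 0.96. Differences of that size did not pass with 3 libraries in each group. The 127 genes are fewer than chance alone marks at that cut, so the test was conservative. Libraries of 1 culture deviated together in the 2 media at 1 time, and the fit had no term for culture and time together. Its p-values can therefore be too large, and the lack of calls does not show equal changes in the 2 media.

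The change with time in rMBD3 cultures was tested for a difference from that in GFP cultures, over 24 libraries. Of 16295 genes 8 passed (0.0491%; 3 or 0.0184% with a higher and 5 or 0.0307% with a lower change in rMBD3 cultures; edgeR), and 2440 had an unadjusted p-value under 0.05. The 4 described here had 2 of each direction. ENSRNOG00000028956 differed by -2.12 ± 0.35 (SE; adjusted p = 0.0454, edgeR), from its fall in rMBD3 and its slight rise in GFP cultures.

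ENSRNOG00000020030 (chromosome 16, 18924722 to 18935997, minus strand, 9 exons) rose in rMBD3 cultures. It had 14.8, 12.4 and 16.5 CPM in cultures 1, 2 and 3 with magnesium at 2 h and 31.1, 54.1 and 50.2 CPM at 24 h. Without magnesium it had 12.4, 12.9 and 15.1 CPM at 2 h and 45.5, 37.6 and 42.4 CPM at 24 h. All 24 h libraries lay above all 2 h libraries. By edgeR it changed by 1.62 ± 0.15 on the log2 scale in rMBD3 cultures (SE; adjusted p = 6.13e-06) and 0.15 ± 0.18 in GFP cultures (adjusted p = 0.496), where the mean was 13.7 ± 3.71 CPM at 2 h and 15.5 ± 4.81 CPM at 24 h (SD, n = 6). The difference was 1.47 ± 0.26 (adjusted p = 0.0454, edgeR). In untransfected cultures the change was -0.45 ± 0.29 (adjusted p = 0.226, edgeR).

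ENSRNOG00000012802 (chromosome 16, 41252182 to 43978594, plus strand, 40 exons) spans 2726413 bases and belongs to the long genes above. It fell in both constructs, with log2 changes of -1.28 ± 0.10 in rMBD3 and -2.32 ± 0.13 in GFP cultures, a difference of 1.04 ± 0.18 (SE; adjusted p = 0.0454, edgeR). At 2 h the rMBD3 libraries had 182 ± 49.7 CPM and the GFP libraries 279 ± 58.5 CPM, and at 24 h 76.0 ± 21.6 and 55.9 ± 11.3 CPM (SD, n = 6). The order of the 2 constructs was thus opposite at the 2 times, although the libraries overlapped at both. In untransfected cultures the change was -1.56 ± 0.24, and the difference of rMBD3 from them was 0.21 ± 0.36 (adjusted p = 0.865, edgeR).

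ENSRNOG00000012939 (chromosome 7, 9691449 to 9711425, minus strand, 47 exons), on the same chromosome as ENSRNOG00000028956, fell in rMBD3 cultures from 28.2 to 54.4 CPM at 2 h to 13.6 to 27.4 CPM at 24 h. The highest library at 24 h, culture 1 without magnesium, lay just below the lowest at 2 h, so the groups did not overlap. The fitted log2 change in rMBD3 cultures was -1.25 ± 0.12 (SE; edgeR, adjusted p = 1.18e-05). It was -0.26 ± 0.12 in GFP cultures (adjusted p = 0.0808), which had 25.3 ± 4.48 CPM at 2 h and 21.5 ± 6.18 CPM at 24 h (SD, n = 6). The difference was -0.97 ± 0.15 (adjusted p = 0.0454, edgeR). At 2 h the mean of rMBD3 cultures was 41.4 ± 9.86 CPM, above GFP, and at 24 h 17.7 ± 5.26 CPM. In untransfected cultures the log2 change was -0.25 ± 0.14 (SE; adjusted p = 0.175, edgeR). The difference of rMBD3 from untransfected cultures was -0.94 ± 0.21 (SE) and did not pass (adjusted p = 0.335, edgeR).

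These 8 calls were not stable. Without culture 2 or without culture 3 none passed, whereas 908 genes passed without culture 1 (181 higher, 727 lower) and 646 without its 24 h library with magnesium (142 higher, 504 lower). With media summed 0 passed, and DESeq2 called 356 (112 higher, 244 lower). Against untransfected cultures the time change of rMBD3 cultures differed in 0 of 16420 genes (0%; edgeR). Before adjustment 1497 had a p-value under 0.05, the lowest adjusted value was 0.0848, and DESeq2 called 24. For ENSRNOG00000028956 and ENSRNOG00000020030 those differences were -2.24 ± 0.37 and 2.12 ± 0.34 (SE; adjusted p = 0.0848 for each, edgeR).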

How the data were processed

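Messenger RNA was sequenced from 54 rat E18 cortical culture libraries, and 36 at 2 h and 24 h entered the main tests. Libraries at 6 h entered tests only in the alternative fit to all 54 libraries. Per the file headers, the authors counted read pairs per gene with featureCounts 2.0.0 (strand setting 2, mapping quality of at least 3, primary alignments) on mRatBN7.2, Ensembl release 105, and deposited these counts. Per the labels' protocols the kit kept strand and STAR aligned reads to rn6; the header names another build, and coordinates are those of the count table. Near-identical genes were not identified, and reads they share may be lost or misplaced. The values of a second deposited table, on a log2 scale by the authors, were not used.

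Counts were fitted with edgeR 4.0.16 in R 4.3.3: filterByExpr (minimum count 10, minimum total 15), TMM scaling, robust quasi-likelihood fits with medium, culture number and time, and Benjamini-Hochberg adjustment over all genes tested at 0.05. Differences between constructs used 8 group coefficients and culture number. Levels are CPM, counts over TMM-scaled library sizes of the 54 libraries. Components used log2 CPM with a prior count of 2. Standard errors came from the fold change and its F statistic. Culture numbers come from the labels, which do not say that cultures were separate dissections, so p-values measure the spread between these libraries. The floor of 3 counts covers counting error only. Named genes were, because no identifier had a symbol, at most 2 in each direction with the largest change (adjusted p under 0.05, 1 sign in 6 pairs, mean log2 CPM of at least 3), at most 2 in each direction with the smallest adjusted p in a difference test, and the gene that separated rMBD3 libraries, chosen after its values were seen. The comparison, the lists and the rules were chosen with earlier results of these data known. Alternatives were no culture block, relative log expression factors, DESeq2 1.42.0, no low-count filter, each culture left out, summed or single media, a fit to all 54 libraries and, added after seeing the data, leaving out the 24 h library of culture 1 with magnesium. Scripts were tested on simulated counts without deviations shared within a culture, which does not measure error rates in these data.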

Additional observations from a re-analysis of the deposited data

Results flagged for a closer look

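Among the 24 h libraries of rMBD3 cultures, culture 1 with magnesium stood apart on 2 measures of the whole library. Its mitochondrial share was 3.56% of counts, where the next highest of the 6 was 2.31%. Its 50 most abundant genes took 15.9% of counts, where the next highest was 13.5%. These were 2 of 32 groups of 6 values examined for 1 distant library, and chance alone marks about 1 in 20 groups. The part of this library in the results was measured by leaving it out: 9489 genes then passed between 24 h and 2 h instead of 8952.

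The change with time differed between rMBD3 and GFP cultures, by a test of the difference itself, in 8 genes. The 4 named ones were ENSRNOG00000028956 (log2 difference -2.12), ENSRNOG00000020030 (1.47), ENSRNOG00000012802 (1.04) and ENSRNOG00000012939 (-0.97), each with an adjusted p of 0.0454 (edgeR). Over 10 alternatives the adjusted p ran from 1.64e-05, 0.000194, 0.000277 and 4.55e-06 to 0.684, and the sign held in each.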

How the results depend on the processing

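For 24 h against 2 h in rMBD3 cultures, 8952 genes became 4943 with the media summed, 3252 with magnesium alone and 4624 without magnesium alone, and 5899 to 10605 with 1 culture left out. In untransfected cultures 6995 became 3801 with the media summed and 3023 (without culture 2) to 6650 with 1 culture left out. The 8 genes that differed in time change from GFP cultures became 0 without the replicate block, 0 with relative log expression factors, 356 by DESeq2, 0 with the media summed, 0 to 908 with 1 culture left out and 646 without the 24 h library of culture 1 with magnesium. The 0 that differed from untransfected cultures became 24 by DESeq2, 2 without the low-count filter, 0 to 38 with 1 culture left out, 23 in a fit to all 54 libraries and 3 without the 24 h library of culture 1 with magnesium. The interaction of medium and time gave 0 under every alternative run. No named gene reversed. Each of the 8 named genes passed between 24 h and 2 h in rMBD3 cultures under all 12 alternatives, with a highest adjusted p of 0.0255 (edgeR).

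Without the culture number as a block 8406 genes passed. Same-numbered libraries deviated together at 1 time (mean correlation 0.451 over 6 pairs, 0.345 to 0.601). Across times they did not (mean 0.00985 over 12 pairs, 0 over 0.1), so the number links the 2 media more than the 2 times. The block was kept because the definition of the comparison names it. It does not remove deviations shared at 1 time, so adjusted p-values of the time comparisons can be too small. The same holds for the difference tests between constructs. For the interaction of medium and time, a contrast within cultures, they can instead be too large. For ENSRNOG00000028956 the value was 0.000121 in the 12-library fit of time and 0.0134 with the media summed (edgeR). For ENSRNOG00000028910 it was 9.58e-07 and 0.00454 (edgeR). Each call rests on 3 cultures, and levels under 0.0920 to 0.127 CPM could not be told from absence.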

Other observations

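Genes called in 1 direction between 24 h and 2 h in rMBD3 cultures also stood side by side on chromosomes. A run was defined, after the data were seen, as at least 6 neighbouring tested genes that all passed (edgeR) with 1 sign. Neighbours can share reads or belong to 1 family, and no test was made of how often runs occur. With 28.1% of tested genes called higher and 29.4% lower, some runs arise by chance. Those described were picked from more runs, and 7 lower genes on chromosome 10 had a median log2 change of only -0.58. The longest held 10 genes, all lower, on chromosome 1 from 94115420 to 94988847, with a median log2 change of -1.90 and a median level of 36 CPM at 2 h and 8.03 CPM at 24 h. The deepest was a run of 9 lower genes on chromosome 7 from 15169689 to 17808790, with a median of -5.04, from 8.06 to 0.346 CPM. A run of 8 lower genes on chromosome 1 from 111101329 to 115929283 had a median of -3.15, from 6.72 to 0.705 CPM.

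Among rising runs, 8 genes on chromosome 6 from 22228942 to 23884846 had a median of 1.26, from 15.1 to 34.6 CPM. On the same chromosome, 7 very short genes from 128628206 to 128634531 (median exonic length 86 bases) fell together with a median of -4.32, and 7 more from 128636229 to 128649684 (89 bases) with a median of -3.97. Their median levels were 1.10 and 0.488 CPM at 2 h and 0.0593 and 0.0724 CPM at 24 h, under the floor of 3 counts at 24 h. Reads of a longer transcript that overlaps such short genes on their strand cannot be told apart from their own reads.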
